A study of Homo sapiens with 3 samples.

Results

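The interferon response and the antigen presentation machinery were followed in SKOV3 ovarian cancer cells expressing shRNAs against the H3K9 methyltransferase G9a. The 56 genes were chosen by name, as 39 interferon-stimulated genes and 17 antigen presentation genes, with no threshold on their values but with earlier results of these data known. Of these, 55 had at least 1 probe set with a single gene symbol, 112 probe sets in all, among 19775 genes and 54675 probe sets in the series. STAT2 was not analysed here, and 3 genes were matched under their current symbols, RIGI for DDX58, STING1 for TMEM173 and CGAS for MB21D1. The first group of cells expressed G9a shRNA1, the second expressed G9a shRNA2, and the control expressed an shRNA against luciferase (Luc shRNA). All 3 were stably transduced by lentivirus and kept in puromycin for 2 weeks, so the control carries the vector and the selection as well. Whether the lines are clones is not stated in the sources used here, and each was measured on 1 Affymetrix Human Genome U133 Plus 2.0 array, 3 arrays in all.

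Type I interferons act through receptors and JAK kinases on a complex of STAT proteins and IRF9, which binds the interferon-stimulated response element of antiviral genes. Interferon gamma acts through a different site, the gamma-activated site, and induces IRF1, which in turn acts on the genes of MHC class I presentation. In that pathway the immunoproteasome cuts proteins, the TAP transporter carries the peptides into the endoplasmic reticulum, aminopeptidases trim them, and tapasin and calreticulin load them onto a class I heavy chain paired with β2-microglobulin. Epithelial tumor cells use the same pathway to show peptides to T cells.

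Interferon response elements occurred in promoters of members that lay above the control and of members that lay below it, and a few are printed to be read beside the values. IRF1 has no such element in its window and is shown for its gamma-activated site. The sequences are RefSeq promoter windows (build GRCh38.p14), which run from 250 bases before a gene's start to 50 after it, and were found for 41 of the 55 genes. Capitals mark matches to GAAANNGAAA on either strand (the interferon-stimulated response element), or in IRF1 to TTCNNNGAA (the gamma-activated site), with 25 bases to each side.
ISG15, chr1:1013359-1013424, plus strand: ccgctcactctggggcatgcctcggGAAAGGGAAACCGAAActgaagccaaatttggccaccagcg
TAP2, chr6:32838763-32838822, minus strand: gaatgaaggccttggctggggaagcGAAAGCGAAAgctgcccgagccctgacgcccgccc
TAP1, chr6:32853798-32853863, minus strand: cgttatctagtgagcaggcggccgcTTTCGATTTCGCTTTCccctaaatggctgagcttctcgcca
IRF1, chr5:132490864-132490922, minus strand: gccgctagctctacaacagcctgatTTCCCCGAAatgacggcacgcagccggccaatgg
IFIT1, chr10:89392482-89392554, plus strand: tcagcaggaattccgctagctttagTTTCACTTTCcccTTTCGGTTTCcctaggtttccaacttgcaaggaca
DDX60, chr4:168318771-168318865, minus strand: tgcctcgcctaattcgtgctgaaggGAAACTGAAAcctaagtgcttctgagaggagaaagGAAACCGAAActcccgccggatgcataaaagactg
IFI6, chr1:27672251-27672373, minus strand: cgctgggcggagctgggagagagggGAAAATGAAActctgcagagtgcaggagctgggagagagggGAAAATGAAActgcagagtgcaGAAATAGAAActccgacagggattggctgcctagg

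The response element was present in 28 of the 41 members with a window (68.3%), against 4.38% of the 27305 genes with a window, and in 3.57% of all 35116 windows. It was present in 19 of 27 interferon-stimulated genes and in 9 of 14 antigen presentation genes. The gamma-activated site was present in 13 of the 41 members (31.7%), against 9.38% of all genes with a window. Matches to both motifs overlapped in BST2, IFI27, IFITM1 and MX1. A match is a description of letters, and these lists are made of genes known to respond to interferon, so the shares say nothing of G9a.

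The values are MAS5 signals, linear brightness values in arbitrary units. Ratios below are log2 of a G9a shRNA signal over the Luc shRNA signal, at the gene's brightest probe set by mean log2 signal. A gene passed the filter when the highest of its 3 signals reached 89.7, the 75th percentile of all values, because dimmer values scattered widely. The SD of the log2 difference between both G9a shRNA arrays was 0.24 over the 8348 genes that passed, 0.87 over the 4844 genes between the median of all values (12.0) and the 75th percentile, and 1.76 over the rest. Median signals lay between 11.7 and 12.3 on the 3 arrays. The median log2 ratio over the 8348 genes was 0.00 with G9a shRNA1 and 0.13 with G9a shRNA2, so a gene at 0.13 with G9a shRNA2 stood at the median of all genes. The 3′ to 5′ signal ratio of the β-actin control probe sets, a sign of RNA integrity, was 1.83 with G9a shRNA1, 1.47 with G9a shRNA2 and 3.68 with Luc shRNA. That of the GAPDH control probe sets was closer between the arrays, at 1.12 with G9a shRNA1, 1.14 with G9a shRNA2 and 1.15 with Luc shRNA. The part of RNA integrity in the ratios below was not tested. Of the 32 members that passed, 4 did so on 1 array only, IFIT1, DDX60 and IFI6 on the Luc shRNA array and IFIH1 on the G9a shRNA2 array. The filter fixes their side of the control with at least 1 shRNA, so counts are also given for the 28 members whose mean signal reached 89.7. No condition has a replicate, so the differences have no replicate error and a count past a fold describes these arrays only.

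EHMT2, which encodes G9a, gave 29.7 with G9a shRNA1 and 79.2 with G9a shRNA2, against 182 with Luc shRNA, at its brightest probe set. The log2 ratio was -2.62 for G9a shRNA1 and -1.20 for G9a shRNA2. A second, dim EHMT2 probe set gave -0.21 for G9a shRNA1 and -0.75 for G9a shRNA2, the opposite order of the shRNAs, and the remaining one, near the background, gave -0.02 for G9a shRNA1 and 2.05 for G9a shRNA2. Of 8 markers of epithelial ovarian cancer cells, including KRT8, EPCAM, ERBB2 and PAX8, 7 passed the filter. Of 7 leukocyte markers measured, none passed, and the highest was 13.7. Their summed signal was 37.3 with G9a shRNA1, 35.4 with G9a shRNA2 and 30.7 with Luc shRNA, and PTPRC, the common leukocyte antigen, stayed under 5 on every array.

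Antigen presentation genes were bright in these cells, and interferon-stimulated genes passed the filter about as often as all genes did. In the first list 15 of 17 genes passed (88.2%), in the second 17 of 38 (44.7%), against 42.2% of all genes. A further 13 interferon-stimulated genes lay between the median of all values and the 75th percentile. The remaining 8 interferon-stimulated genes (21.1%) and 2 antigen presentation genes stayed under the median on all 3 arrays, against 33.3% of all genes.

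**Figure D1:**
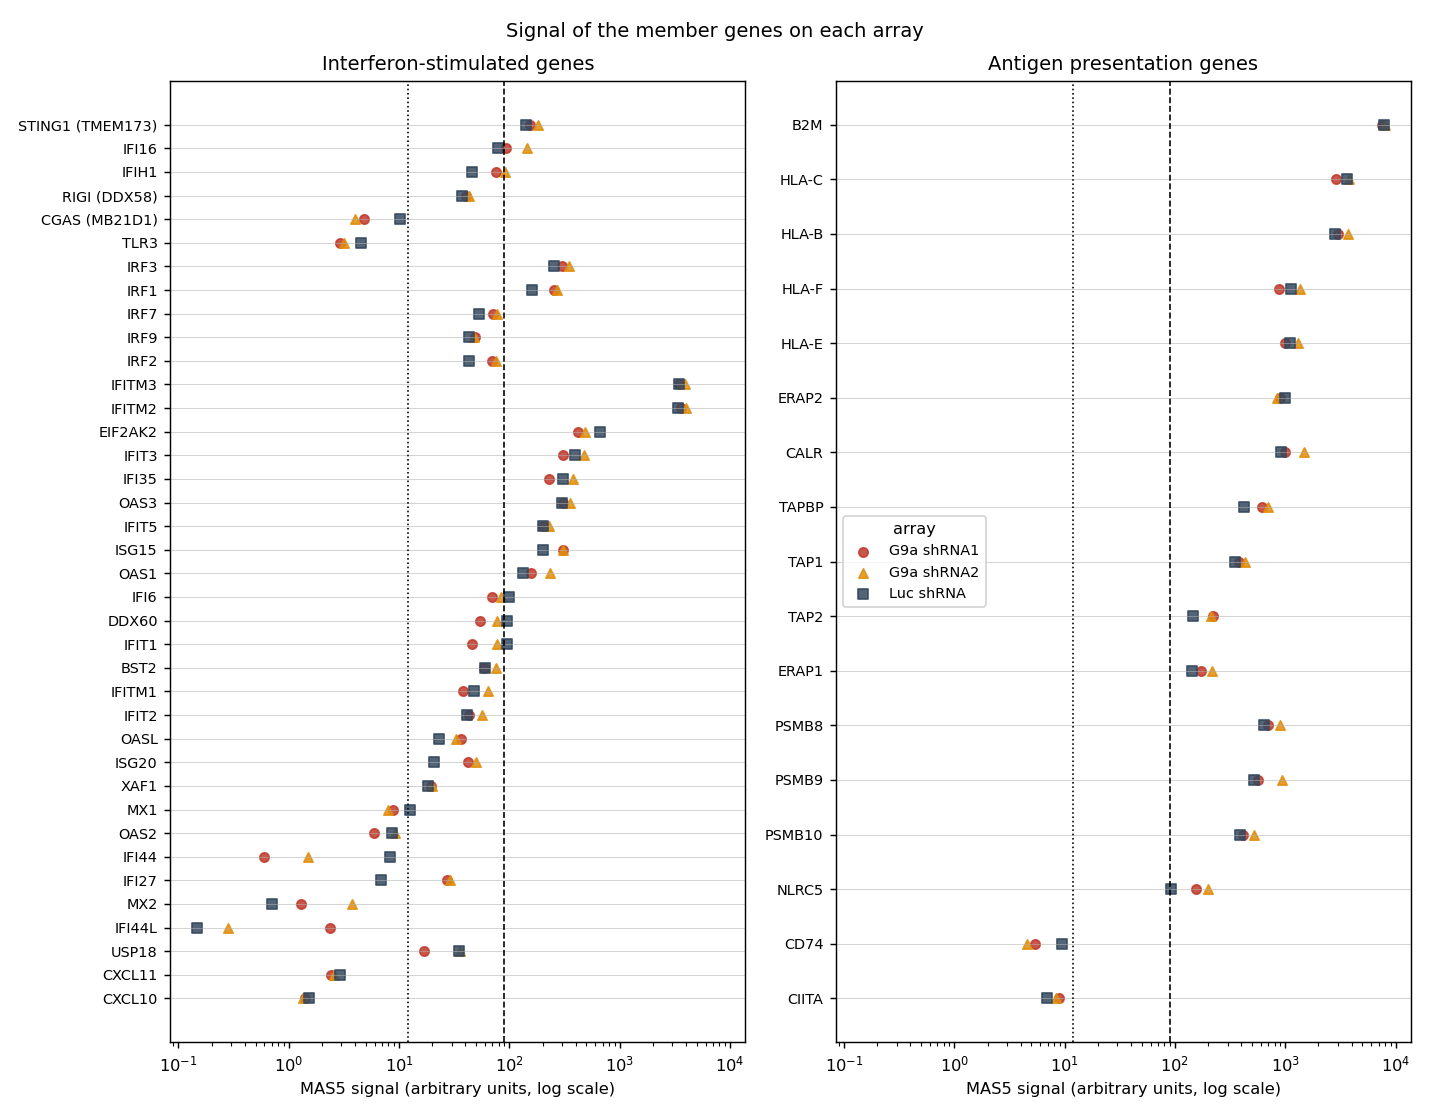
MAS5 signal (x axis, log scale, arbitrary units) of each member gene at its brightest probe set on the G9a shRNA1 array (circles), the G9a shRNA2 array (triangles) and the Luc shRNA array (squares), for 38 interferon-stimulated genes (left) and 17 antigen presentation genes (right). The dashed line is the filter at 89.7 and the dotted line the median of all values at 12.0; B2M and the HLA genes lie at the bright end, and CXCL10, CXCL11, TLR3 and CD74 to the left of the dotted line.

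None of the 32 members past the filter was over 2-fold higher or lower with both shRNAs. Over all 8348 genes 0.611% were higher and 0.467% lower, so a count of 0 among 32 is near the background. With G9a shRNA1, IFIT1, one of the members that passed only on the Luc shRNA array, was the single member over 2-fold lower (1.98% of all genes) and none was over 2-fold higher (0.958%). With G9a shRNA2, NLRC5 was the single member over 2-fold higher (1.4%) and none was over 2-fold lower (0.539%).

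At 1.5-fold, a lower threshold listed as an alternative, IFIH1, IRF1, ISG15 and NLRC5 were higher with both shRNAs. These 4 are 12.5% of the 32 members, against 3.76% of all genes, and no member was lower with both, against 2.22%. With the filter on the mean signal, which leaves out IFIH1, 3 members were higher with both. Median centring gave 3 and quantile normalization 2, both without ISG15. Its ratio fell under 1.5-fold, to 0.53 with G9a shRNA1 after median centring and to 0.48 with G9a shRNA2 after quantile normalization. With G9a shRNA1, 5 members were higher (5.5% of all genes) and 3 were lower (7.12%), of which EIF2AK2 alone passed the filter on the mean signal. With G9a shRNA2, 10 members were higher (8.33%) and none was lower (2.65%).

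Taking both G9a shRNA arrays as 1 group, limma with Benjamini-Hochberg adjustment over the 8348 genes called NLRC5 (adjusted p = 0.0113), IRF1 (adjusted p = 0.0337) and TAPBP (adjusted p = 0.0481), all higher. Over all genes it called 3.16% higher and 2.43% lower. At an unadjusted p under 0.05 it held 9 of the 32 members (28.1%), against 17.3% of all genes. The shRNAs are different reagents and the lone control was assumed to vary like them, so a deviation of the Luc shRNA array enters every such call.

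**Figure D2:**
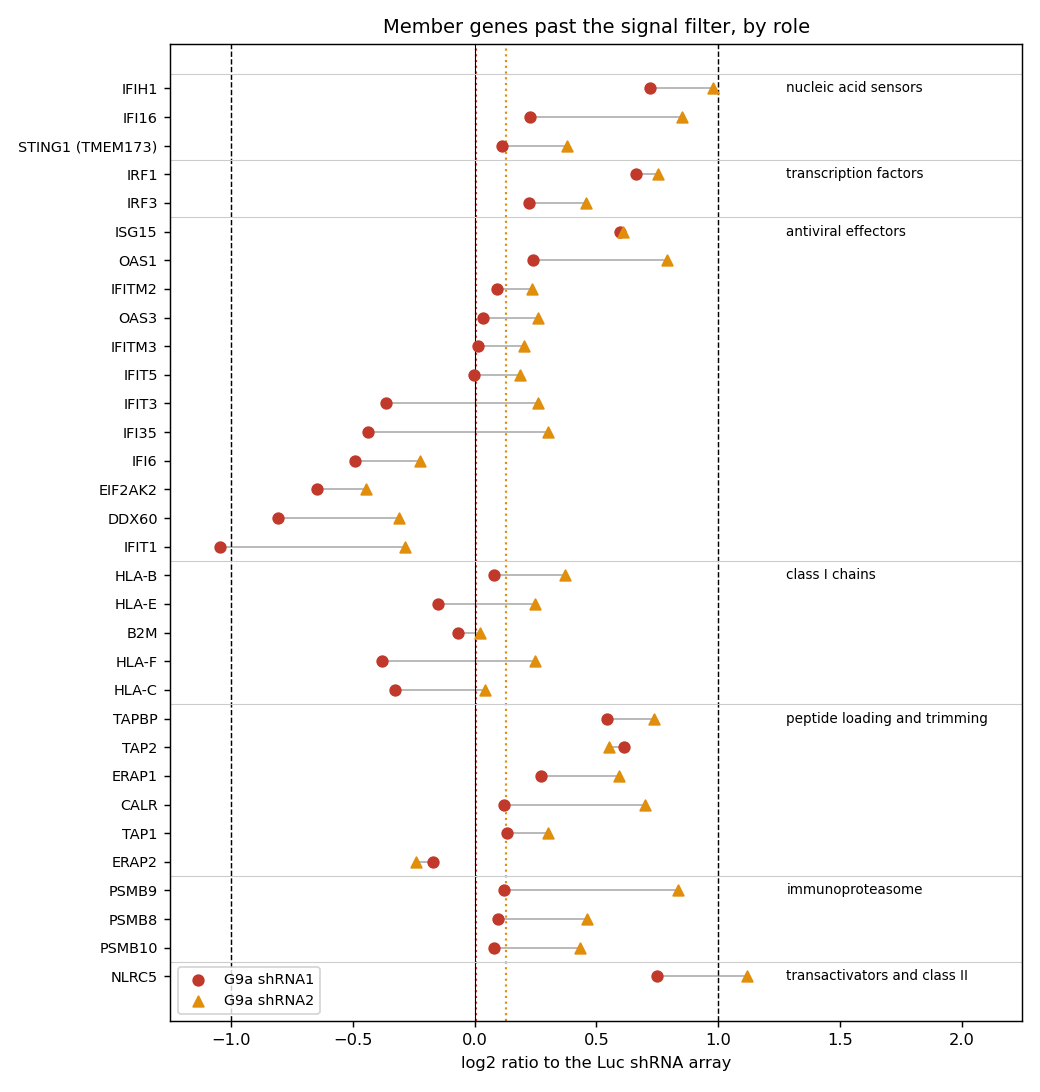
Log2 ratio to the Luc shRNA array (x axis) of the 32 members past the filter, grouped by role, where circles stand for G9a shRNA1, triangles for G9a shRNA2, and a line joins the pair. Dashed lines mark 2-fold and dotted lines the median of all genes for each array (0.00 and 0.13); IRF1, ISG15, TAPBP, TAP2 and NLRC5 lie to the right with both shRNAs, and IFI6, EIF2AK2, DDX60, IFIT1 and ERAP2 to the left with both.

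Among the nucleic acid sensors, which detect foreign RNA or DNA, the 3 that passed the filter were higher with both shRNAs, beside 46.9% of all genes. IFI16 reached the filter on both G9a shRNA arrays but not on the Luc shRNA array, and IFIH1 on the G9a shRNA2 array only. The filter thus fixed the side of IFI16 with both shRNAs and that of IFIH1 with G9a shRNA2. IFIH1, which encodes the RNA sensor MDA5, gave 75.9 with G9a shRNA1, 90.8 with G9a shRNA2 and 46.1 with Luc shRNA, log2 ratios of 0.72 and 0.98. It passed the filter by a narrow margin on 1 array, and its other probe sets were near the background. IFI16, a DNA sensor of the nucleus, had 93.0 with G9a shRNA1, 143 with G9a shRNA2 and 79.4 with Luc shRNA. Its ratio was 0.23 for G9a shRNA1 but 0.85 for G9a shRNA2, and a second probe set at 79.6 with G9a shRNA1, 143 with G9a shRNA2 and 88.5 with Luc shRNA lay on the other side of the control with G9a shRNA1. STING1 (TMEM173), the adaptor below the DNA sensors, had 152 with G9a shRNA1, 183 with G9a shRNA2 and 141 with Luc shRNA, ratios of 0.11 and 0.38. The other RNA sensor RIGI (DDX58) was dimmer, at 40.2 with G9a shRNA1, 43.1 with G9a shRNA2 and 37.1 with Luc shRNA, all within 1.2-fold of the control. CGAS (MB21D1), the DNA sensor that makes the ligand of STING1, and TLR3, the endosomal sensor of double-stranded RNA, were under the median of all values on every array.

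IRF1 and IRF3 were the transcription factors past the filter, and both were above the control with both shRNAs. The IRF1 signal was 256 with G9a shRNA1 and 272 with G9a shRNA2, against 162 with Luc shRNA, ratios of 0.66 and 0.75. Its second probe set, at 102 with G9a shRNA1, 90.5 with G9a shRNA2 and 66.5 with Luc shRNA, gave 0.62 with G9a shRNA1 and 0.44 with G9a shRNA2, so both probe sets were higher with both shRNAs. Of the genes tested, 3.91% had a ratio as high as that of IRF1 with G9a shRNA1 and 3.87% with G9a shRNA2. IRF3, which is activated below the sensors rather than induced, had 297 with G9a shRNA1, 349.5 with G9a shRNA2 and 255 with Luc shRNA, ratios of 0.22 and 0.46. IRF2, a factor that binds the same sites as IRF1, did not reach the filter at 70.0 with G9a shRNA1, 75.8 with G9a shRNA2 and 43.2 with Luc shRNA. IRF7, the factor that amplifies interferon production, and IRF9, the DNA-binding part of the STAT complex, were also dim. IRF7 had 71.6 with G9a shRNA1, 76.6 with G9a shRNA2 and 53.3 with Luc shRNA. IRF9 had 48.4 with G9a shRNA1, 47.6 with G9a shRNA2 and 43.3 with Luc shRNA.

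Of the 12 antiviral effectors that passed the filter, 5 were above the control with both shRNAs and 4 below it with both, beside 46.9% and 28.9% of all genes. With the filter on the mean signal, 5 of 9 effectors were above with both and EIF2AK2 alone was below. Of these 5, OAS3 and IFITM3 had ratios of 0.03 and 0.01 with G9a shRNA1, which median centring turned to -0.04 and -0.06. ISG15, a ubiquitin-like protein that is conjugated to other proteins, had 303 with G9a shRNA1 and 306 with G9a shRNA2, against 201 with Luc shRNA, ratios of 0.60 and 0.61. OAS1, which makes the activator of RNase L, had 158 with G9a shRNA1, 231 with G9a shRNA2 and 134 with Luc shRNA, ratios of 0.24 and 0.79, and its second probe set gave 0.37 with G9a shRNA1 and 0.70 with G9a shRNA2. The related OAS3 was closer to the control, at 304 with G9a shRNA1, 356 with G9a shRNA2 and 297 with Luc shRNA. IFITM2 and IFITM3, membrane proteins that block viral entry, were the brightest of the list. IFITM2 had 3596 with G9a shRNA1, 3983 with G9a shRNA2 and 3379.8 with Luc shRNA, and IFITM3 had 3457 with G9a shRNA1, 3945 with G9a shRNA2 and 3425 with Luc shRNA. Both genes are read by probe sets whose design allows cross-hybridization to related transcripts, so their values cannot be told apart with certainty.

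IFIT1, an RNA-binding protein that blocks translation of foreign transcripts, was the lowest member past the filter with G9a shRNA1. It had 46.1 with G9a shRNA1 and 78.0 with G9a shRNA2, against 95.1 with Luc shRNA, ratios of -1.04 and -0.29. Its ratio with G9a shRNA1 was -1.08 after quantile normalization. DDX60, a helicase that assists the RNA sensors, had 54.3 with G9a shRNA1, 76.6 with G9a shRNA2 and 95.1 with Luc shRNA, ratios of -0.81 and -0.31. EIF2AK2, the kinase PKR that halts translation, had 419.8 with G9a shRNA1, 482 with G9a shRNA2 and 657 with Luc shRNA, ratios of -0.65 and -0.45. A second EIF2AK2 probe set was closer to the control, at -0.22 with G9a shRNA1 and -0.03 with G9a shRNA2. IFI6, a mitochondrial protein, had 70.0 with G9a shRNA1, 84.1 with G9a shRNA2 and 98.4 with Luc shRNA, ratios of -0.49 and -0.23. IFIT1, DDX60, EIF2AK2 and IFI6 were below the control with both shRNAs, and each carries the response element in its promoter window, as ISG15 does.

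The remaining effectors past the filter split by shRNA. IFIT3, the partner of IFIT1, had 305 with G9a shRNA1, 470.3 with G9a shRNA2 and 393 with Luc shRNA, ratios of -0.36 and 0.26. IFI35 had 227 with G9a shRNA1, 379 with G9a shRNA2 and 308 with Luc shRNA, ratios of -0.44 and 0.30. IFIT5 had 201 with G9a shRNA1, 229 with G9a shRNA2 and 202 with Luc shRNA and lay within 1.2-fold of the control with both. IFIT genes are neighbors in a single cluster, and they did not share a direction.

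Several widely used interferon markers did not reach the filter, and their ratios are those of dim genes, which scattered with an SD of 0.87. ISG20, an exonuclease that degrades RNA, had 42.2 with G9a shRNA1, 50.3 with G9a shRNA2 and 20.5 with Luc shRNA at one probe set, ratios of 1.04 and 1.29. A second ISG20 probe set of similar brightness gave -0.96 with G9a shRNA1 and -0.01 with G9a shRNA2, so the probe sets of this gene did not agree. IFI27, a mitochondrial protein that is strongly induced by interferon, had 26.9 with G9a shRNA1, 29.0 with G9a shRNA2 and 6.81 with Luc shRNA, ratios of 1.98 and 2.09 from a control signal under the median of all values. IFI27 and ISG20 were the members past 2-fold higher with both shRNAs when the filter was set at that median. The share of all genes in that setting was not counted. USP18, which removes ISG15 and dampens the receptor, had 16.7 with G9a shRNA1, 35.8 with G9a shRNA2 and 34.6 with Luc shRNA, ratios of -1.05 and 0.05. BST2, IFITM1, IFIT2, OASL and XAF1 had signals between the median and the filter, and MX1 reached 12.5 on the Luc shRNA array only. MX2, OAS2, IFI44, IFI44L and the T cell attracting chemokines CXCL10 and CXCL11 stayed under the median on every array, and no ratio is given for them.

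Class I chains were bright, and all 5 lay within 1.5-fold of the control with both shRNAs. B2M, which encodes β2-microglobulin, had 7501 with G9a shRNA1 and 7972 with G9a shRNA2, against 7859 with Luc shRNA, the highest signal of all members. HLA-C had 2912 with G9a shRNA1, 3767 with G9a shRNA2 and 3655 with Luc shRNA, ratios of -0.33 and 0.04. HLA-B had 3013 with G9a shRNA1, 3686 with G9a shRNA2 and 2848 with Luc shRNA, ratios of 0.08 and 0.37. The heavy chains HLA-E, a ligand of natural killer cell receptors, and HLA-F, also of the nonclassical class, lay on both sides of the control. HLA-E had 995 with G9a shRNA1, 1314 with G9a shRNA2 and 1105 with Luc shRNA. HLA-F had 873 with G9a shRNA1, 1349 with G9a shRNA2 and 1136 with Luc shRNA. With G9a shRNA1, 4 of the 5 chains were below the control, and with G9a shRNA2 all 5 were above it. Of all genes, 50.5% were above the control with G9a shRNA1 and 67.5% with G9a shRNA2. With G9a shRNA2, 3 of the 5 chains were above the median of all genes. Of the 13 probe sets for these heavy chains, 11 are of the kind that can cross-hybridize, and HLA-B gave ratios of 0.08, -0.27 and -0.21 on its 3 probe sets with G9a shRNA1.

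Genes for peptide loading and trimming lay above the control in 5 of 6 cases with both shRNAs, beside 46.9% of all genes. TAPBP, which encodes tapasin, had 613 with G9a shRNA1 and 701 with G9a shRNA2, against 420.3 with Luc shRNA, ratios of 0.54 and 0.74. Its dim probe sets were closer to the control, at 0.03 and 0.26 with G9a shRNA1 and at 0.20 and 0.14 with G9a shRNA2. TAP2, a subunit of the peptide transporter, had 221 with G9a shRNA1, 212 with G9a shRNA2 and 144 with Luc shRNA, ratios of 0.61 and 0.55, with 0.34 for G9a shRNA1 and 0.24 for G9a shRNA2 at its second bright probe set. TAP1, its partner, was closer to the control at 382 with G9a shRNA1, 429 with G9a shRNA2 and 348 with Luc shRNA. Both transporter promoters hold the response element. CALR, the chaperone calreticulin, had 996 with G9a shRNA1, 1488 with G9a shRNA2 and 917 with Luc shRNA, ratios of 0.12 and 0.70. ERAP1, a trimming aminopeptidase, had 172 with G9a shRNA1, 215 with G9a shRNA2 and 142 with Luc shRNA, ratios of 0.27 and 0.59. Dim ERAP1 probe sets gave -0.72, -0.49 and 0.93 with G9a shRNA1, and 0.12, 0.21 and 0.48 with G9a shRNA2. Its relative ERAP2 was the exception, with 890.3 with G9a shRNA1, 848 with G9a shRNA2 and 1001 with Luc shRNA, ratios of -0.17 and -0.24. All 3 bright ERAP2 probe sets were below the control with both shRNAs.

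The immunoproteasome subunits were near the control with G9a shRNA1 and above it with G9a shRNA2. PSMB9 had 567 with G9a shRNA1, 931 with G9a shRNA2 and 522 with Luc shRNA, ratios of 0.12 and 0.84. PSMB8 had 691 with G9a shRNA1, 888 with G9a shRNA2 and 646 with Luc shRNA, ratios of 0.10 and 0.46, and PSMB10 had 411 with G9a shRNA1, 525 with G9a shRNA2 and 389 with Luc shRNA, ratios of 0.08 and 0.43. PSMB9 and TAP1 are transcribed away from each other, with starts 488 bases apart in RefSeq, and the response elements printed for TAP1 lie between them. With G9a shRNA2 the ratio was 0.84 for PSMB9 and 0.30 for TAP1. The constitutive subunits and activators past the filter, 4 genes, had a median ratio of -0.06 for G9a shRNA1 and 0.13 for G9a shRNA2, close to the medians of all genes.

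NLRC5, the transactivator of MHC class I genes, had the highest mean ratio of all members past the filter. Its signal was 156 with G9a shRNA1 and 201 with G9a shRNA2, against 92.6 with Luc shRNA, ratios of 0.75 and 1.12. Quantile normalization gave NLRC5 ratios of 0.73 for G9a shRNA1 and 0.97 for G9a shRNA2, the second no longer past 2-fold. Of all genes tested, 2.77% had a ratio as high with G9a shRNA1 and 0.970% with G9a shRNA2. NLRC5 has 1 probe set. CIITA, the corresponding transactivator of class II genes, and CD74, the invariant chain of class II, stayed under 10 on every array at their brightest probe sets. Of 5 class II chain genes none passed the filter.

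As a list, the 17 interferon-stimulated genes past the filter were centred at a log2 ratio of 0.03 (median) with G9a shRNA1, and at 0.26 with G9a shRNA2. Median centring turned the sign of the first, to -0.04, and the filter on the mean signal (13 genes) gave 0.09 for G9a shRNA1 and 0.30 for G9a shRNA2. The 15 antigen presentation genes were centred at 0.10 with G9a shRNA1, and at 0.43 with G9a shRNA2. Over all 8348 genes the medians were 0.00 for G9a shRNA1 and 0.13 for G9a shRNA2. Relative to all genes, the antigen presentation genes were thus 0.09 higher with G9a shRNA1 and 0.30 higher with G9a shRNA2, and with G9a shRNA2 14 of 15 lay above the control, against 67.5% of all genes, and 12 of 15 lay above the median of all genes. With G9a shRNA1 10 of 15 did, against 50.5% of all genes. After quantile normalization the antigen presentation genes were 0.12 above the median of all genes for G9a shRNA1, and 0.33 above it for G9a shRNA2.

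**Figure D3:**
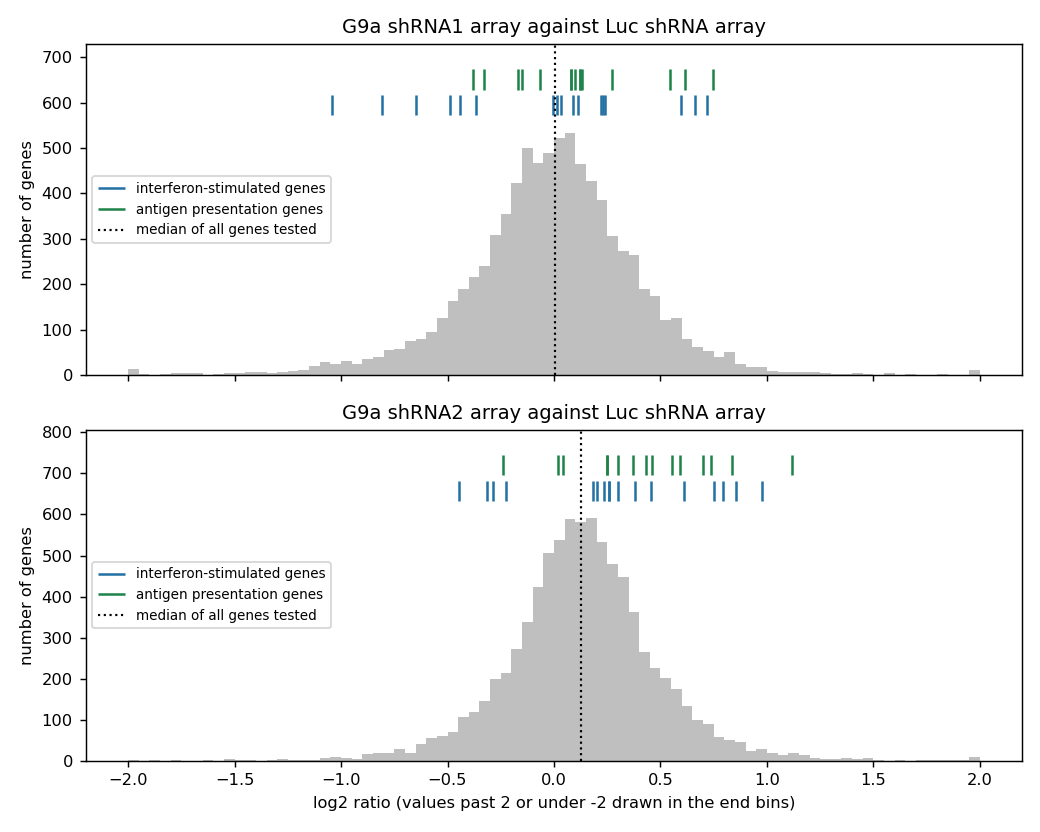
Number of genes (y axis) by log2 ratio to the Luc shRNA array (x axis) for the 8348 genes past the filter, with G9a shRNA1 (top) and G9a shRNA2 (bottom). Ticks mark the 17 interferon-stimulated and 15 antigen presentation genes and the dotted line the median of all genes; with G9a shRNA2, 14 of the 15 antigen presentation genes lie above 0.

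Counted by probe set, antigen presentation genes lay below the control slightly more often than above it with G9a shRNA1. Of 51 bright probe sets of the members, 29 belonged to antigen presentation genes, of which 13 were above the control with G9a shRNA1 and 26 with G9a shRNA2. Of all 13178 bright probe sets with 1 symbol, 50.6% were above it with G9a shRNA1 and 67.5% with G9a shRNA2. The median of these 29 was -0.13 with G9a shRNA1, where the median by gene was 0.10. The class I heavy chains have 13 probe sets, all of them bright except a dim one of HLA-F. The 22 bright probe sets of interferon-stimulated genes were above the control in 12 cases with G9a shRNA1 and in 17 with G9a shRNA2. Of 13 genes with several bright probe sets, 11 had all of them on the same side of the control with G9a shRNA1, HLA-B and IFI16 being the exceptions, and all 13 did with G9a shRNA2.

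**Figure D4:**
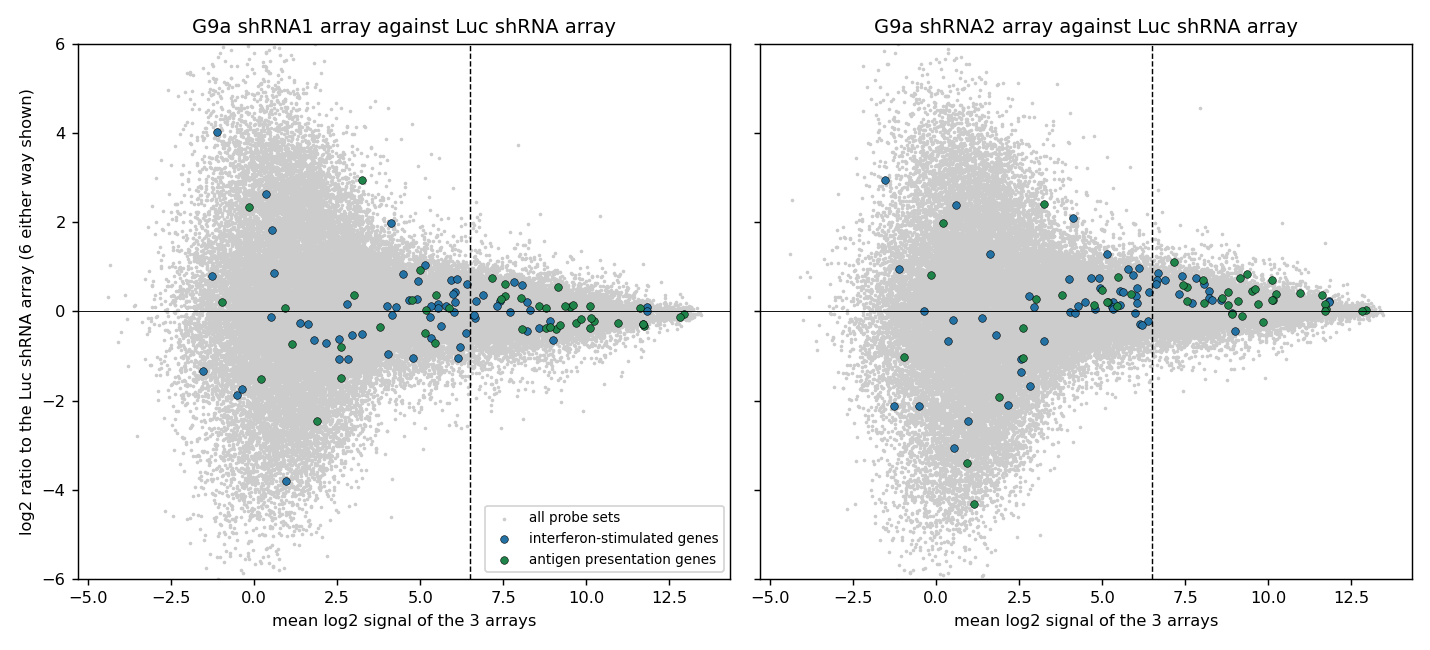
Log2 ratio to the Luc shRNA array (y axis) against the mean log2 signal of the 3 arrays (x axis), with G9a shRNA1 (left) and G9a shRNA2 (right), for all probe sets (grey) and the 112 probe sets of the members. The dashed line marks the filter value; all member probe sets with a log2 ratio past 2 or under -2 lie to its left, where the other probe sets scatter as widely.

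Upstream of the members, 48 further genes of the pathway were examined, of which 46 were measured and 28 passed the filter. None of the 28 was past 2-fold with both shRNAs, and their median ratio was -0.03 for G9a shRNA1 and 0.14 for G9a shRNA2. All 7 interferon genes measured, including IFNB1, IFNG and IFNL1, stayed under the median of all values on every array. The 6 receptors and kinases past the filter had a median of -0.09 for G9a shRNA1 and 0.11 for G9a shRNA2. The 4 genes of endogenous retroviral silencing had a median of -0.06 for G9a shRNA1 and 0.02 for G9a shRNA2, but they differed. TRIM28 had 0.23 for G9a shRNA1 and 0.60 for G9a shRNA2, and SETDB1 had -0.17 and 0.01. EHMT1 had 0.06 for G9a shRNA1 and -0.01 for G9a shRNA2, and DNMT1 had -0.29 and 0.04. SOCS1, a feedback inhibitor of JAK kinases, was the single gene past 2-fold, with G9a shRNA2 only, and it passed the filter on that array alone. It had 31.6 with G9a shRNA1, 92.6 with G9a shRNA2 and 40.8 with Luc shRNA, ratios of -0.37 and 1.18, and it was chosen for mention after its values were seen.

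Among bright members with a promoter window, the response element was present in 10 of 16 that were above the control with both shRNAs and in 5 of 5 that were below it with both. The 5 are IFI6, IFIT1, DDX60, EIF2AK2 and ERAP2, of which the first 3 passed the filter only on the Luc shRNA array. The element in ISG15 starts 113 and 107 bases before the gene's start, and those in IFIT1 start 116 and 103 bases before. The element was thus found on both sides of the control.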

How the data were processed

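The sample labels name MAS5 as the tool with which the authors made 1 intensity value per probe set from each array, and the deposited intensities are on a linear scale. Its version and settings are not given in the sources used here. No further normalization was applied, and ratios of both G9a shRNA arrays to the control array were taken on the log2 scale. Probe sets were linked to genes through the platform annotation, and 41097 had 1 symbol. Promoters and names came from RefSeq (GRCh38.p14). For each gene the brightest probe set by mean log2 signal was kept, and genes whose highest signal reached the 75th percentile were counted. The threshold was 2-fold, as in the study, with 1.5-fold and 3-fold as alternatives. The members, roles and lists were chosen with earlier results of these data known, and the rule for naming genes took EHMT2, the members, and genes of other pathway lists past 2-fold with both shRNAs, of which there was none. SOCS1 was named outside it, and so were the cell type markers and the other pathway genes named here. limma 3.58.1 (R 4.3.3) was an alternative, tested on simulated data like the fold rule. The simulation drew the noise of every array from the same spread and gave both shRNAs the same change. It thus could not test whether the control varies like the G9a shRNA arrays. Python 3.11.15, numpy 2.4.6, pandas 2.3.3 and matplotlib 3.10.9 were used. The number of arrays limits the precision.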

Additional observations from a re-analysis of the deposited data

Results flagged for a closer look

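IFI35, IFIT3 and HLA-F lay on opposite sides of the control with the 2 shRNAs, each by more than 0.24 in the values as deposited, the SD of bright genes between the G9a shRNA arrays. The log2 ratios with G9a shRNA1 and G9a shRNA2 were -0.439 and 0.303 for IFI35, -0.364 and 0.26 for IFIT3, and -0.38 and 0.248 for HLA-F. The difference between the shRNAs was not tested, since each has 1 array, and the median of all genes was 0.13 with G9a shRNA2. After quantile normalization the G9a shRNA2 ratios were 0.17 for IFI35, 0.13 for IFIT3 and 0.17 for HLA-F, all under that SD. The second IFIT3 probe set gave -0.07 for G9a shRNA1 and 0.61 for G9a shRNA2, and a dim HLA-F probe set gave 0.08 for G9a shRNA1 and 0.39 for G9a shRNA2.

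A probe set that the annotation gives to both IFITM2 and IFITM1, and that entered no count, read 65.6 with G9a shRNA1 and 72.3 with G9a shRNA2, against 35.2 with Luc shRNA. Its log2 ratios were 0.898 and 1.04, whereas the probe set of IFITM1 alone gave -0.34 and 0.43 and that of IFITM2 alone gave 0.09 and 0.24.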

How the results depend on the processing

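With G9a shRNA1 the median of interferon-stimulated genes, 0.03, ran between -0.04 (median centring, 8 genes above the control and 9 below) and 0.10. That of antigen presentation genes, 0.10, ran between 0.03 and 0.21. With G9a shRNA2 the medians of these lists were 0.26, between 0.16 and 0.33, and 0.43, between 0.35 and 0.63. The 0.21 and 0.63 came from leaving out probe sets whose names end in _s_at or _x_at. That setting kept 8 antigen presentation genes past the filter instead of 15, with HLA-E as the only class I chain. For interferon-stimulated genes, omitting the filter gave 3 past 2-fold higher and 4 lower with G9a shRNA1, 3 higher and 2 lower with G9a shRNA2, and 2 higher and 2 lower with both. A filter at the median of all values gave 2 higher and 2 lower with G9a shRNA1, 2 higher with G9a shRNA2 and 2 higher with both. Shares of all genes past 2-fold were not counted without the filter or at that median, so these counts have no background beside them. A filter on the mean signal gave 0 lower with G9a shRNA1. At 1.5-fold, 3 were higher and 3 lower with G9a shRNA1, 5 higher with G9a shRNA2 and 3 higher with both, and at 3-fold 0 were lower with G9a shRNA1. For antigen presentation genes, 1.5-fold gave 2 higher with G9a shRNA1, 5 with G9a shRNA2 and 1 with both. Quantile normalization and the 3-fold threshold each gave 0 higher with G9a shRNA2, and no filter gave 1 lower with G9a shRNA2 (CD74, near the background). limma called 1 interferon-stimulated gene and 2 antigen presentation genes higher. Settings for the 1.5-fold counts over both lists were chosen after seeing the data. There, median centring and the mean over probe sets each gave 3 higher with G9a shRNA1, the filter on the mean signal gave 1 lower with G9a shRNA1, the mean over probe sets gave 1 lower with G9a shRNA2, and quantile normalization gave 2 higher with both. Low signal is what limits the dim members: 0.407% of bright genes, 14.3% of dim ones and 50.3% of the rest differed over 2-fold between the G9a shRNA arrays. No paired analysis was possible because each condition has 1 array.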
